A study of Homo sapiens with 4 samples.

Results

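RNA-seq counts of 33 genes of the endoplasmic reticulum (ER) folding machinery and its stress response were examined in 4 libraries of cultured ovarian cancer cells. The genes were chosen by name as ER chaperones, disulfide isomerases, degradation factors, stress sensors and translocon subunits, and all 33 stand among the 52402 gene symbols of the count files. The libraries were the HERV-K119 knockout (KO) and the mock control of the cell lines labelled SKOV3 and OVCAR3, with 1 library per group. The knockout was made with CRISPR-Cas9 against the envelope gene of HERV-K119, an endogenous retrovirus, and all 4 cultures, mock included, received hygromycin at 100 μg/mL for 2 days from about 18 h after transfection. The labels do not say whether the knockout cells were 1 clone or a pool, and the targeted provirus was not analysed here, so these values hold no check of the knockout itself.

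Secretory and membrane proteins enter the ER through the SEC61 channel, where chaperones and disulfide isomerases fold them and the degradation machinery returns failed products to the cytosol. When unfolded protein builds up, the sensors IRE1 (gene ERN1), ATF6 and PERK (gene EIF2AK3) start the unfolded protein response. IRE1 splices the message of XBP1 into one for an active transcription factor, ATF6 is cut to release another, and PERK slows translation and raises ATF4. XBP1 and ATF6 then switch on many of the chaperone and degradation genes. Gene counts of the kind deposited here do not show the splicing of XBP1 or the cutting of ATF6.

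Many chaperone genes carry the ER stress response element (CCAAT, 9 bases of any kind, then CCACG), a binding site of ATF6 with NF-Y, or the shorter element II (ATTGG, 1 base of any kind, then CCACG). Both strands of the 250 bases before the first-listed start of each gene were searched in RefSeq promoters (GRCh38.p14), where 30 of the 33 members had an entry and DERL1, DERL3 and PDIA3 had none. The first element stood in 6 of these 30 promoters (HSPA5, HSP90B1, CALR, CANX, CRELD2 and XBP1) and in the promoters of 22 of all 27305 genes, or 0.0806%. Element II stood in 3 members (HERPUD1, HYOU1 and SDF2L1) and in 14 of all promoters, or 0.0513%. The UPR element TGACGTGG stood in 2 members, DNAJC10 and HYOU1, and in 0.667% of all promoters; in HYOU1 it overlaps an element II. Over every listed start, of which 5 members have several, PDIA6 held the first element as well, and the shares of genes were 0.0916%, 0.0659% and 0.780%. A match is a description of the sequence and does not show binding. The stretches that hold a match to the first element or element II are printed below. Capitals mark the element, on either strand. Each stretch is read 5′ to 3′ along the gene's strand and ends before the start searched. For CANX, with 4 listed starts, that is chr5:179698929, downstream of the annotated gene start at 179678656.
HSPA5 (chr9:125241344-125241469, minus strand): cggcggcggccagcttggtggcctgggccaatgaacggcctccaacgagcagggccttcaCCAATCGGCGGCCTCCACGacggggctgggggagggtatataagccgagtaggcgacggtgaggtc
HSP90B1 (chr12:103930196-103930359, plus strand): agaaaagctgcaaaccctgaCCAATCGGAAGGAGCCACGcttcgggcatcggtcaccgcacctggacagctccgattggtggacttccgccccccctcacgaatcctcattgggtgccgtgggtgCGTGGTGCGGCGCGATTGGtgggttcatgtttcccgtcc
CALR (chr19:12938364-12938422, plus strand): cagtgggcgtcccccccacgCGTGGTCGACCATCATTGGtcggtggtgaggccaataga
CANX (chr5:179698758-179698816, plus strand): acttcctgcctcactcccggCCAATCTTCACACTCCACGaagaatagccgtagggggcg
CRELD2 (chr22:49918534-49918592, plus strand): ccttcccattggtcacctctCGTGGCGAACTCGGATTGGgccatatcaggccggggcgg
XBP1 (chr22:28800583-28800641, minus strand): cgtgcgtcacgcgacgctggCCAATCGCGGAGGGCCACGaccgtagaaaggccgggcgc
HERPUD1 (chr16:56932005-56932055, plus strand): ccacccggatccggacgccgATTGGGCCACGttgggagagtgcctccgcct
SDF2L1 (chr22:21642094-21642144, plus strand): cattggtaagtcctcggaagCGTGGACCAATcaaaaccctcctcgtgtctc
HYOU1 (chr11:119057254-119057410, minus strand): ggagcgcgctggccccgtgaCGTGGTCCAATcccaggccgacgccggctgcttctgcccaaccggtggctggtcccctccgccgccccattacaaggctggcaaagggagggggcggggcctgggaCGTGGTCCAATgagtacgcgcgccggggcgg

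Total counts lay between 15145483 and 22057693 per library. Levels are counts normalised to library size (CPM) and scaled with the trimmed mean of M values (TMM). A ratio is the log2 of the knockout level divided by the mock level after 2 counts were added as a prior. Exact 95% intervals of the count ratio stand in brackets and cover counting error alone, and none of the within-line differences is replicated. A gene was measured with at least 1 CPM in 1 library of the pair, and passed the size rule with an absolute log2 ratio of at least 1. The OVCAR3-labelled knockout library stood apart, with 21.9% of its counts in mitochondrially encoded genes against 5.93% in its mock. The nuclear long noncoding RNA NEAT1 had 1501 unscaled CPM there against 143 in that mock, and 298 against 456 in the SKOV3-labelled pair. In the OVCAR3-labelled knockout 25743 symbols had counts, against 21377 in its mock. The part of these differences in the members' ratios was not tested. Markers did not all go with the labels, so the lines are named below by their labels. CDKN2A, a gene that SKOV3 cells lack, was at 91.2 CPM in the knockout and 90.6 CPM in the mock library of that label. ERBB2, which is amplified in SKOV3 cells, had 55.7 and 58.5 CPM in the SKOV3-labelled knockout and mock. It had 32.0 CPM in the OVCAR3-labelled knockout and 73.3 CPM in its mock, so the SKOV3-labelled mock was the lower mock. MUC16, the CA125 gene known from OVCAR3 cells, had 6.18 and 2.74 CPM in the OVCAR3-labelled knockout and mock and 0.063 and 0.044 CPM in the SKOV3-labelled ones. The transcription factor gene WT1, also looked at as a line marker, was at 0 in all 4 libraries. Of the same list, VIM had 2.35 and 1.95 CPM in the SKOV3-labelled knockout and mock. It had 0.95 and 1.10 CPM in the OVCAR3-labelled ones. PAX8 had 3.33 to 8.83 CPM over the 4 libraries. EPCAM, an epithelial gene, had 268 to 352 CPM over the 4 libraries. Of 6 markers of leukocytes, vessels and fibroblasts PTPRC and COL3A1 were at 0 in all 4 while CD68 and COL1A1 were between 8.21 and 35.4 CPM.

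In the SKOV3-labelled pair nearly all members lay slightly lower in the knockout library, and none passed the size rule in either direction. For 26 of 31 measured members the ratio was negative, beside 48.9% of all 13524 measured genes. The members' median was -0.16 and their range -0.42 to 0.25, and the median of all measured genes was 0.01. The counting interval lay below 0 for 19 of the 31 and above 0 for 2, against 18.1% and 17.6% of all measured genes. The size rule took 0.739% of measured genes downward and 0.799% upward. HYOU1 and DERL3 were under 1 CPM in both libraries and were not measured there.

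In the OVCAR3-labelled pair the ratios were spread more widely: the main chaperone HSPA5, 4 of 5 disulfide isomerases, HERPUD1, SYVN1 and the sensor gene ERN1 were lower in the knockout library, while DNAJC10, EDEM1 and small translocon subunits were higher. Of 32 measured members 20 lay below 0 and 12 above, beside 43.8% of all 15560 measured genes and 50.7% of 12731 protein-coding ones below 0. The members' median was -0.40, against 0.16 for all measured genes and -0.02 for protein-coding ones. The counting interval lay below 0 for 18 members and above 0 for 10, beside 34.9% and 44.8% of all measured genes. Of the 12731 protein-coding genes it lay below 0 for 5271 and above 0 for 4907. By the size rule 7 members were lower (HSPA5, HYOU1, CALR, P4HB, HERPUD1, SYVN1 and ERN1) and 2 were higher (DNAJC10 and EDEM1). This rule took 15.4% of all measured genes downward and 22.5% upward, and 18.2% and 12.9% of protein-coding genes, in a pair in which 3504 genes were higher and 2390 lower; the share of members that were lower is near the background. With TMM factors taken over all symbols instead of expressed genes, 2594 genes were higher and 3417 lower, and the median of all genes was -0.17 and that of the members -0.69. With the mitochondrial rows left out the members' median was -0.41. HYOU1 was measured only through its mock library, so its place among the lower genes follows in part from the filter.

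**Figure D1:**
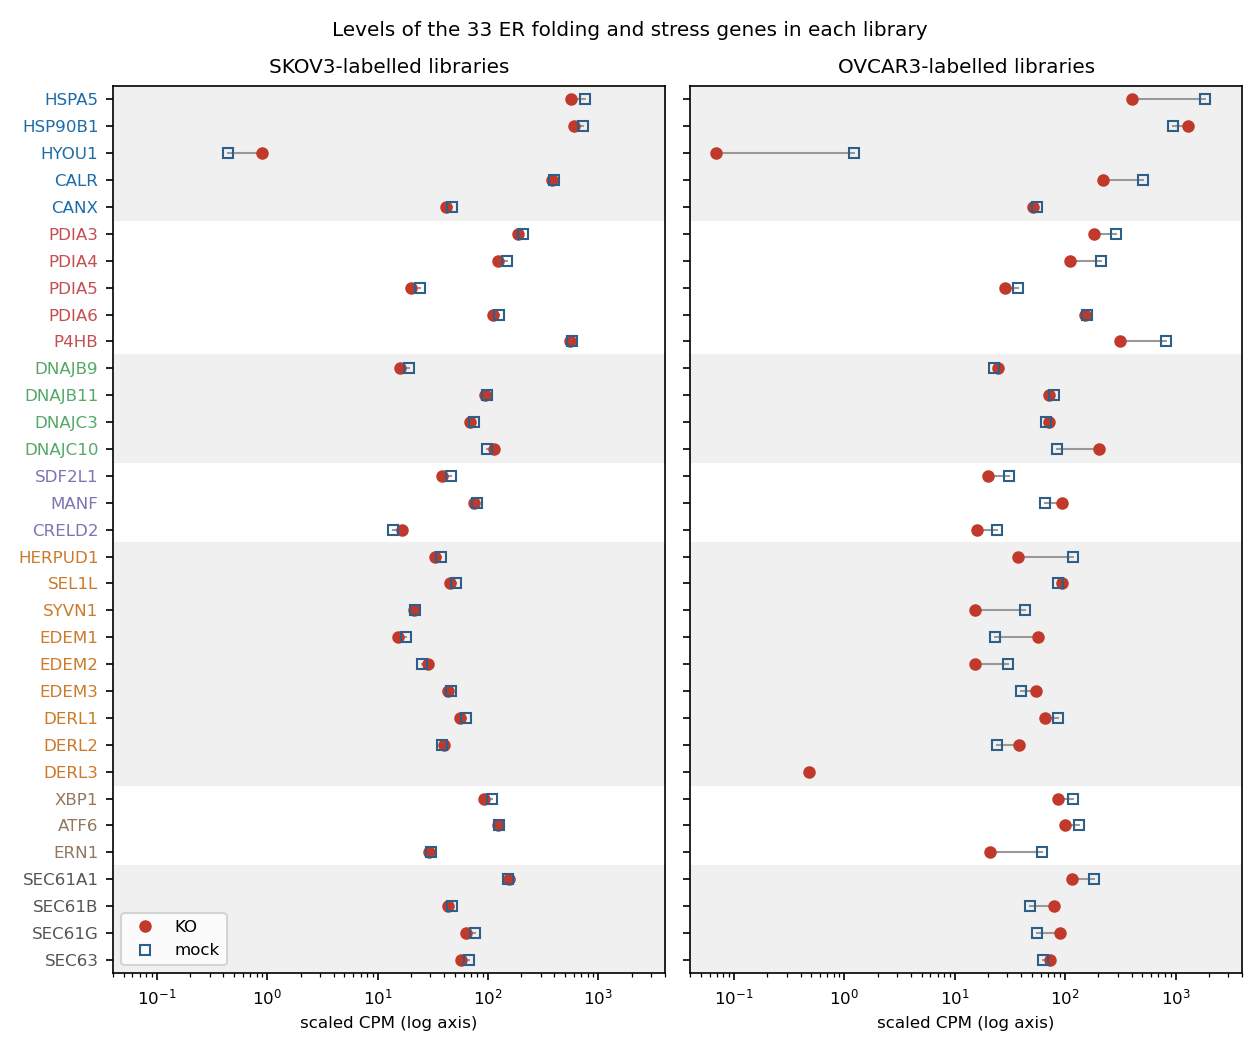
Scaled CPM (log axis) of the 33 members in the SKOV3-labelled libraries (left) and the OVCAR3-labelled libraries (right), with 1 library per point, filled circles for knockout and open squares for mock, and gene names coloured by function; counts of 0 (DERL3) are not drawn. The points of a gene lie close together on the left except for HYOU1, which has few counts, while on the right HSPA5 lies at 407 CPM in the knockout and 1858 CPM in the mock library.

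**Figure D2:**
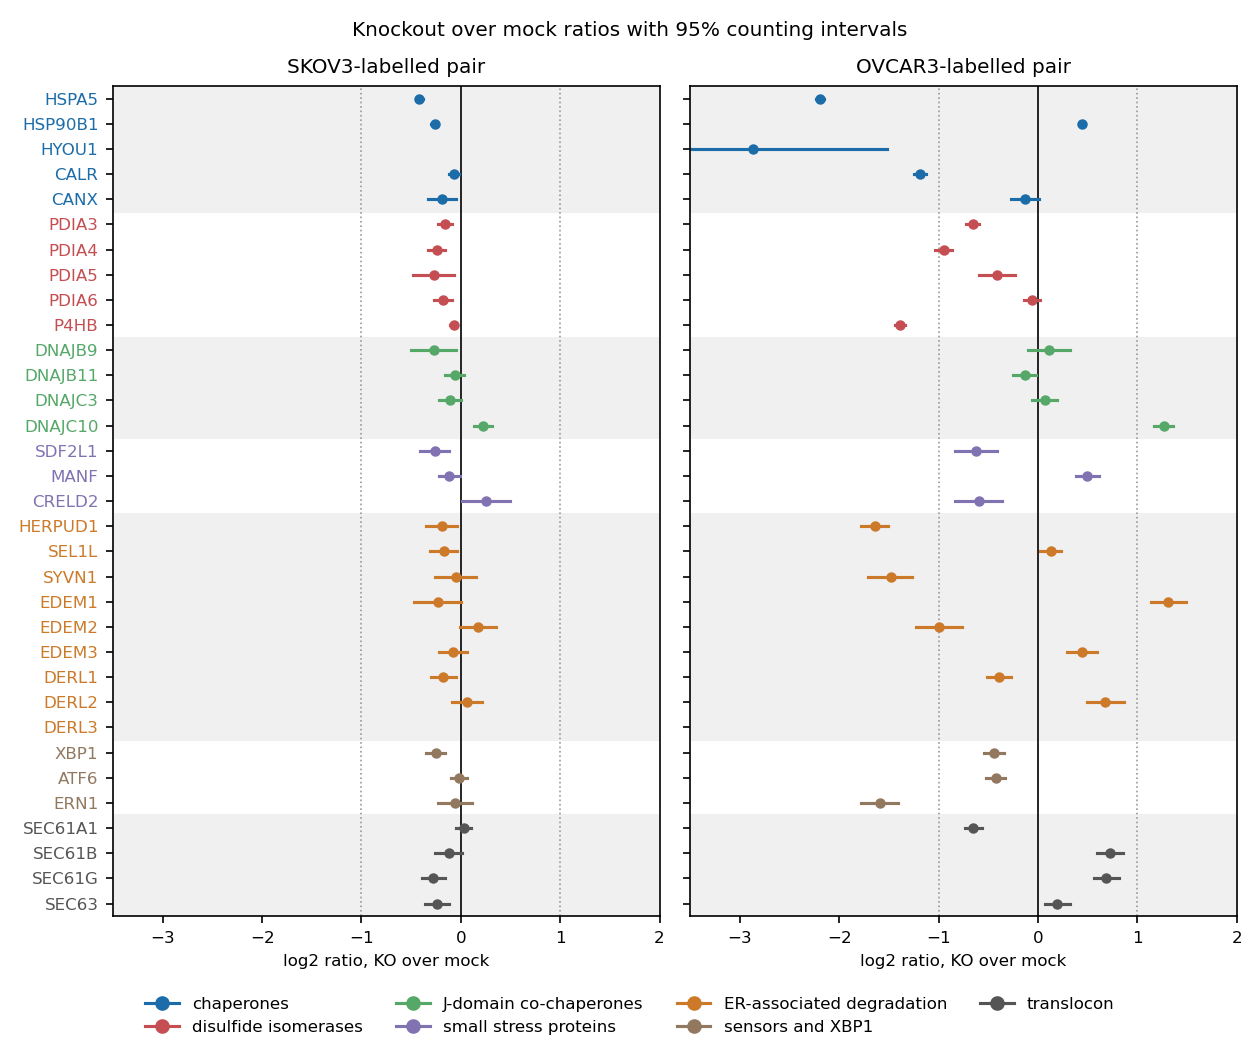
Log2 ratio of knockout over mock for each measured member, coloured by function, with bars for the 95% counting interval and dotted lines at the size rule of -1 and 1; the bar of HYOU1 runs past the left edge. SKOV3-labelled ratios lie between -0.42 and 0.25, and OVCAR3-labelled ones between -2.86 and 1.31.

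ERN1, ATF6 and XBP1 lay below 0 in both pairs, although ATF6 in the SKOV3-labelled pair lay just above 0 without a scaling factor or with a GC and length trend removed, and ERN1 had the lowest ratio of these genes in the OVCAR3-labelled pair. ERN1 (chromosome 17, 64039142 to 64130144), which encodes IRE1, the kinase and RNase that splices XBP1, had 20.6 CPM in the OVCAR3-labelled knockout and 62.2 CPM in its mock library. The log2 ratio was -1.59 (-1.78 to -1.41), a level 3.01-fold lower. ERN1 in the SKOV3-labelled pair had 29.1 CPM in the knockout and 30.3 CPM in the mock library, and the interval of -0.23 to 0.12 includes 0. ERN1 in the OVCAR3-labelled knockout was thus the lowest of its 4 libraries and in that line's mock the highest. XBP1 (chromosome 22, 28794560 to 28800569) had 86.3 against 117 CPM in the OVCAR3-labelled pair (-0.44, -0.55 to -0.34) and 91.1 against 109 CPM in the SKOV3-labelled pair (-0.25, -0.35 to -0.16), knockout first. Both of its intervals lie below 0. ATF6, the membrane-bound transcription factor, had 99.1 against 133 CPM in the OVCAR3-labelled pair (-0.42, -0.52 to -0.33) and 124 against 125 CPM in the SKOV3-labelled one.

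HSPA5 (chromosome 9, 125234853 to 125241343) encodes BiP, the Hsp70 chaperone of the ER that also holds the sensors inactive. It had 407 CPM in the OVCAR3-labelled knockout and 1858 CPM in its mock library, from counts of 5995 and 30525. The log2 ratio was -2.19 (-2.23 to -2.15), 4.57-fold lower, and 1.74% of measured genes had a lower ratio. The SKOV3-labelled libraries had 562 CPM in the knockout and 750 CPM in the mock library (-0.42, -0.45 to -0.38), the lowest ratio of the members there. Keratin genes, markers of epithelial cells, had low ratios in the same pair: KRT8 had 704 CPM in the knockout against 3035 CPM in the mock, and the ratios of KRT8, KRT7 and KRT18 were -2.11, -2.31 and -1.38, against -0.23 for EPCAM. Their part in the HSPA5 ratio was not tested. For HSPA5 the OVCAR3-labelled mock library was the high one, at 2.48 times the SKOV3-labelled mock, and the other 3 lay between 407 and 750 CPM. In bulk libraries a smaller number of expressing cells and less RNA per cell cannot be told apart.

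HSP90B1 (chromosome 12, 103930410 to 103947926), the ER Hsp90 known as GRP94, carries 2 stress elements in its promoter yet had another pattern. It had 1292 CPM in the OVCAR3-labelled knockout and 948 CPM in its mock library (0.45, 0.42 to 0.48), against 606 and 726 CPM in the SKOV3-labelled knockout and mock (-0.26, -0.30 to -0.23). Its intervals lie on opposite sides of 0 in the 2 pairs. With the trend on GC content and length removed, its ratio was 0.12 in the OVCAR3-labelled and -0.26 in the SKOV3-labelled pair. The ratio of HSPA5 to HSP90B1 counts, which is free of scaling, was 0.315 in the OVCAR3-labelled knockout and 1.96 in its mock library, and 0.928 and 1.03 in the SKOV3-labelled knockout and mock. Per kilobase of the longest transcript, HSP90B1 was the highest member in the OVCAR3-labelled knockout, at 426 CPM per kb with HSPA5 at rank 5 with 104, and in that line's mock library HSPA5 was at rank 1 with 475 and HSP90B1 at rank 3 with 313.

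CALR and CANX are the lectin chaperones calreticulin and calnexin, which hold glycoproteins during folding. CALR had 222 CPM in the OVCAR3-labelled knockout and 505 CPM in its mock library, 2.28-fold lower (-1.19, -1.25 to -1.13). The SKOV3-labelled libraries lay close together, at 380 CPM in the knockout and 399 CPM in the mock (-0.07, -0.12 to -0.02). CANX differed little, with 50.6 against 55.4 CPM in the OVCAR3-labelled pair (-0.13, -0.27 to 0.01) and 41.5 against 47.4 CPM in the SKOV3-labelled one (-0.19, -0.33 to -0.05), knockout first. CANX and HYOU1, the large Hsp70-like chaperone, each stand in 2 rows of the files, which were summed. HYOU1 had only 14, 10, 1 and 20 counts in the SKOV3-labelled knockout and mock and the OVCAR3-labelled knockout and mock, all in 1 of its rows. The OVCAR3-labelled ratio of -2.86 has an interval of -9.54 to -1.52. ATF6B, the second ATF6 gene, stands in 4 rows and was at 0 in every library, as were 1988 of the 2687 symbols with several rows, so values of repeated symbols are uncertain.

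The 5 disulfide isomerases, which form and rearrange disulfide bonds in folding proteins, lay below 0 in both pairs, 5 of 5 each time. P4HB, which encodes the founding isomerase PDI and is also a subunit of collagen prolyl hydroxylase, had 312 CPM in the OVCAR3-labelled knockout and 818 CPM in its mock library, 2.62-fold lower (-1.39, -1.44 to -1.34). It had 554 against 582 CPM in the SKOV3-labelled pair (-0.07, -0.11 to -0.03), where all isomerase ratios lay between -0.27 and -0.07. PDIA4 had 109 against 211 CPM in the OVCAR3-labelled pair (-0.95, -1.03 to -0.86), just inside the size rule. PDIA3, the partner of CALR and CANX, had 184 against 290 CPM (-0.66, -0.73 to -0.59), and PDIA5 28.2 against 37.5 CPM (-0.41, -0.59 to -0.23). PDIA6 was nearly level at 153 against 159 CPM, and its interval of -0.14 to 0.02 includes 0. The median over the isomerases was -0.66 in the OVCAR3-labelled and -0.18 in the SKOV3-labelled pair.

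The J-domain co-chaperones, which stimulate BiP, had OVCAR3-labelled ratios well above that of HSPA5. DNAJC10 (chromosome 2, 182716257 to 182794464), a disulfide reductase also called ERdj5, had 204 CPM in the OVCAR3-labelled knockout and 84.8 CPM in its mock library, 2.40-fold higher (1.26, 1.17 to 1.36). It was also higher in the SKOV3-labelled knockout, at 114 against 97.6 CPM (0.23, 0.14 to 0.32). DNAJC10 was 1 of 2 members above 0 in both pairs, with DERL2, while 16 of 31 lay below 0 in both, beside 26.4% and 25.4% of the 13294 genes measured in both pairs. The counting intervals of 7 of the 31 lay on opposite sides of 0 in the 2 pairs, beside 13.4% of these genes. DNAJB9, DNAJB11 and DNAJC3 had OVCAR3-labelled ratios of 0.11, -0.13 and 0.07, and DNAJB11 had an interval that excludes 0 (-0.25 to -0.02). DNAJB9 and DNAJC3 lay below 0 with TMM over all symbols or no scaling factor. Their SKOV3-labelled ratios, in the order DNAJB9, DNAJB11 and DNAJC3, were -0.27, -0.06 and -0.11.

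Small ER proteins that are known as stress-induced genes differed in direction among themselves. MANF, a secreted survival factor that binds BiP, had 92.9 CPM in the OVCAR3-labelled knockout and 65.9 CPM in its mock library (0.49, 0.38 to 0.61), against 73.9 and 80.1 CPM in the SKOV3-labelled knockout and mock (-0.12, -0.22 to -0.01). SDF2L1, a partner of DNAJB11, had 20.1 against 30.9 CPM in the OVCAR3-labelled pair (-0.62, -0.83 to -0.41) and 38.4 against 46.1 CPM in the SKOV3-labelled one (-0.26, -0.41 to -0.12). CRELD2 had the opposite signs to MANF, with 16.02 against 24.2 CPM in the OVCAR3-labelled pair (-0.59, -0.83 to -0.36) and 16.5 against 13.8 CPM in the SKOV3-labelled one (0.25, 0.01 to 0.50).

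Genes of ER-associated degradation split evenly in the OVCAR3-labelled pair, with 4 of 8 measured members below 0 and 4 above, each with an interval that excludes 0. HERPUD1 (chromosome 16, 56932142 to 56944864), a membrane protein that organises the degradation complex and is a known target of the stress response, had 37.6 CPM in the knockout and 117 CPM in its mock library, 3.12-fold lower (-1.64, -1.78 to -1.50). SYVN1, the ubiquitin ligase HRD1, had 15.3 against 43.0 CPM (-1.48, -1.71 to -1.27). Its partner SEL1L, the adaptor of the same complex, had 93.1 against 85.2 CPM (0.13, 0.02 to 0.24), a ratio below 0 with TMM over all symbols. The HERPUD1 to SEL1L count ratio was 0.404 in the OVCAR3-labelled knockout against 1.38 in its mock, and 0.720 against 0.731 in the SKOV3-labelled pair.

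The EDEM genes encode lectins and mannosidases that mark glycoproteins for degradation, and their OVCAR3-labelled ratios differed in sign. EDEM1 (chromosome 3, 5187707 to 5219958) had 57.2 CPM in the OVCAR3-labelled knockout and 23.0 CPM in its mock library, 2.48-fold higher (1.31, 1.14 to 1.49), the highest ratio of the measured members. EDEM2 was lower by nearly the size rule, at 15.1 against 30.2 CPM (-0.99, -1.23 to -0.77). EDEM3 had 54.6 against 40.2 CPM (0.44, 0.29 to 0.59). The count ratio of EDEM1 to EDEM2 was 3.78 in that knockout, against 0.762 in its mock and 0.543 and 0.722 in the SKOV3-labelled knockout and mock. The SKOV3-labelled ratios of EDEM1, EDEM2 and EDEM3 were -0.23, 0.18 and -0.08.

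The derlins form part of the channel through which proteins leave the ER. DERL1 had 65.0 against 85.4 CPM in the OVCAR3-labelled pair (-0.39, -0.51 to -0.27) and 55.4 against 62.5 CPM in the SKOV3-labelled one (-0.17, -0.30 to -0.05). DERL2 had 38.4 against 24.0 CPM (0.68, 0.49 to 0.87) and 39.6 against 37.9 CPM (0.07, -0.09 to 0.22) in the same order of pairs. DERL1 and DERL2 thus differed in direction in both pairs, although the SKOV3-labelled interval of DERL2 includes 0. DERL3 had 7 counts in the OVCAR3-labelled knockout and 0 in the other 3 libraries, at least 2.60-fold higher than in that line's mock if 3 counts are taken as the upper limit there; it stands in 2 rows.

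In the translocon, the channel subunit SEC61A1 and its small partners differed in direction in the OVCAR3-labelled pair. SEC61A1 had 115 CPM in the knockout and 181 CPM in its mock library (-0.65, -0.74 to -0.57). SEC61B had 79.1 against 47.8 CPM (0.72, 0.59 to 0.86), and SEC61G 90.3 against 56.0 CPM (0.69, 0.57 to 0.81). With the trend on GC content and length removed, SEC61A1 and SEC61G lay on the same side of 0, at -0.22 and -0.23. SEC61B was then at 0.25. The count ratio of SEC61B to SEC61A1 was 0.686 in that knockout library, and 0.264, 0.279 and 0.311 in the OVCAR3-labelled mock and the SKOV3-labelled knockout and mock. SEC63, a J-domain protein that brings BiP to the channel, had 72.5 against 63.2 CPM (0.20, 0.07 to 0.32), a ratio below 0 with TMM over all symbols. SEC61G and SEC63 lay below 0 in the SKOV3-labelled pair, at -0.28 (-0.39 to -0.16) and -0.24 (-0.36 to -0.12), and the intervals of SEC61A1 and SEC61B include 0.

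The OVCAR3-labelled ratios went with GC content among the members as among other genes. Across 32 members the Spearman correlation of the ratio with the GC content of the longest transcript was -0.67, and across 12731 protein-coding genes it was -0.42; genes of 1 library pair are not independent. The 16 members with a GC content above 45.5% held all 7 that were lower by the size rule and had a median of -0.97, against a median of 0.12 for the other 16. With a trend on GC content and transcript length removed, 25 of 32 lay below 0 with a median of -0.32. Of 12731 protein-coding genes 6525 lay below 0 in that setting, and the size rule took 1385 downward and 1648 upward. Among the members 4 were past the rule downward: HSPA5 at -2.10, HYOU1 at -2.33, HERPUD1 at -1.50 and ERN1 at -1.21. The share of members past the rule downward is near this background, and HYOU1 had 1 against 20 counts. CALR, P4HB and SYVN1 were then at -0.92, -0.85 and -0.90. EDEM1 was at 1.41 and DNAJC10 at 0.56. DNAJB9, DNAJC3, SEL1L, SEC61G and SEC63, which were above 0, turned to values between -0.29 and -0.13. The SKOV3-labelled correlation was 0.15 across 31 members and 0.13 across protein-coding genes.

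**Figure D3:**
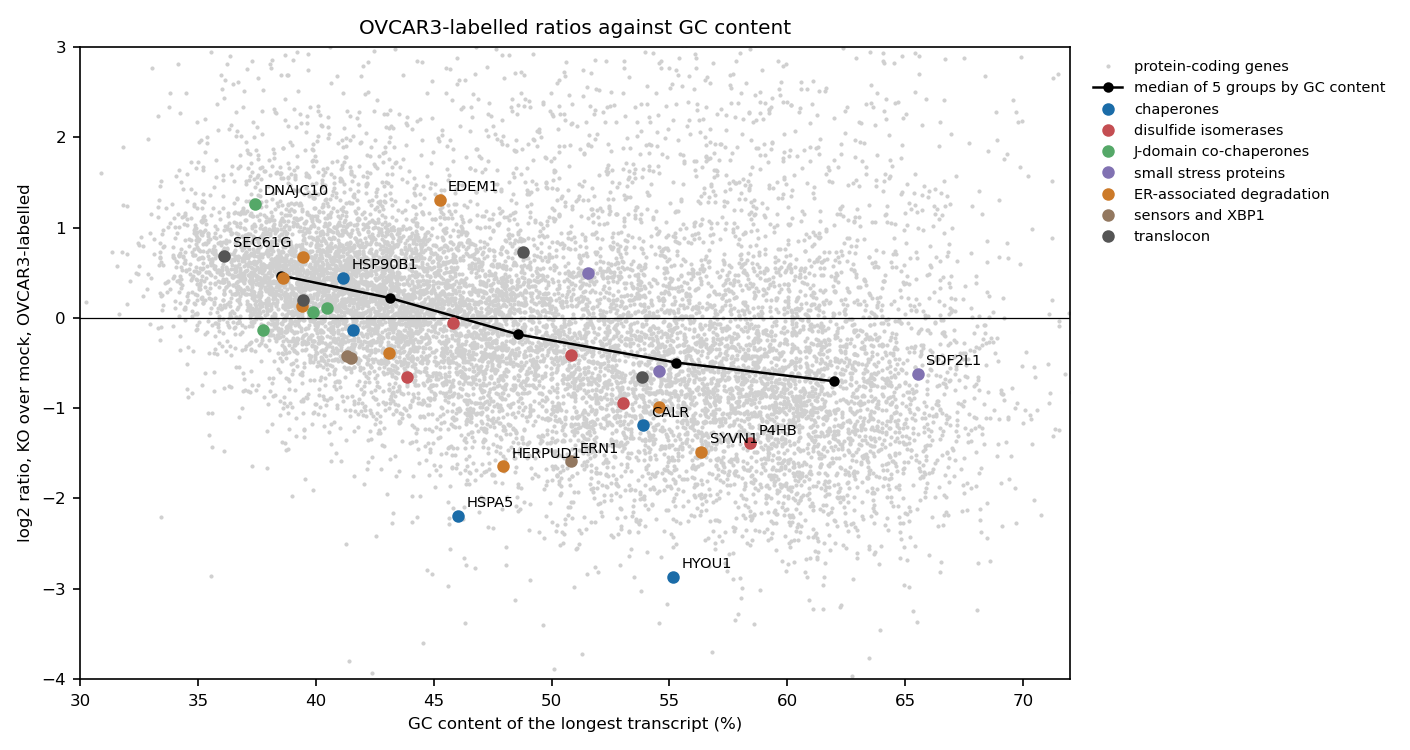
Log2 ratio of knockout over mock in the OVCAR3-labelled pair against the GC content (%) of the longest transcript, with grey points for protein-coding genes, coloured points for members by function and a black line for the medians of 5 groups of equal size by GC content; points beyond the axes are not drawn. The group medians run from 0.47 at the lowest to -0.70 at the highest GC content, and HSPA5, at a GC content of 46.0%, lies at -2.19.

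Between the mock libraries, HSPA5, HERPUD1, ERN1 and HYOU1 were higher by the size rule in the OVCAR3-labelled than in the SKOV3-labelled mock, and no member was lower by it, beside 9.47% and 5.52% of 13721 measured genes. HYOU1 was measured in this contrast only through the OVCAR3-labelled mock, with 20 counts against 10. HERPUD1 had 117 CPM in the OVCAR3-labelled and 37.4 CPM in the SKOV3-labelled mock, a log2 ratio of 1.65 (1.53 to 1.77), and ERN1 had 62.2 and 30.3 CPM (1.04, 0.90 to 1.18). SYVN1 was just inside, at 43.0 against 21.9 CPM (0.97, 0.81 to 1.14). The members together took 0.391% of the counts of the OVCAR3-labelled knockout and 0.642% of those of its mock, and 0.401% and 0.445% in the SKOV3-labelled knockout and mock. This contrast shares the OVCAR3-labelled mock library with the knockout ratio of that line, so the 2 are not independent.

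The genes that carry the first stress element lay below 0 in 5 of 6 cases in each pair, the exceptions being HSP90B1 in the OVCAR3-labelled pair and CRELD2 in the SKOV3-labelled one. Their ratios ranged from -2.19 for HSPA5 to 0.45 for HSP90B1 in the OVCAR3-labelled pair. Among the 16 non-member promoters with this element, 9 belonged to genes measured in the OVCAR3-labelled pair and 8 in the SKOV3-labelled pair, and 5 and 6 of these lay below 0. The 3 members with element II lay below 0 in the OVCAR3-labelled pair, HYOU1 among them with 1 against 20 counts. The 2 of them measured in the SKOV3-labelled pair lay below 0 there as well. Of the non-member genes with element II, 5 of 10 measured lay below 0 in the OVCAR3-labelled pair (median 0.16). In the SKOV3-labelled pair 4 of 8 did so (median -0.03). Of all measured genes 43.8% lay below 0 in the OVCAR3-labelled and 48.9% in the SKOV3-labelled pair. Of protein-coding genes 50.7% lay below 0 in the OVCAR3-labelled pair.

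Other genes of the pathway were taken from 5 lists, of which the PERK branch list had the lowest median in the OVCAR3-labelled pair. The list groups genes by their place in the pathway. PERK activity was not measured, and the cause of these ratios was not tested. Of the 11 genes of this list 10 lay below 0 in the OVCAR3-labelled pair, with a median of -2.04. By the size rule 7 were lower and 0 higher, beside 15.4% and 22.5% of all measured genes and 18.2% and 12.9% of protein-coding ones. In the SKOV3-labelled pair 4 lay below 0 with a median of 0.09. Between the mock libraries 5 of the 11 were higher by the size rule in the OVCAR3-labelled one and 0 lower, beside 9.47% and 5.52% of measured genes. The OVCAR3-labelled knockout ratio shares that mock library, so these contrasts are not independent. TRIB3, a pseudokinase induced by ATF4 and CHOP, had 30.1 CPM in the OVCAR3-labelled knockout and 264 CPM in its mock library (-3.13, -3.28 to -2.99). The SKOV3-labelled knockout and mock had 48.2 and 54.8 CPM of TRIB3. The highest OVCAR3-labelled ratio of the list was that of EIF2S1, which encodes the translation factor subunit that PERK phosphorylates, at 0.08 (0.01 to 0.14). EIF2AK3, the gene of PERK itself, was nearly level, at 18.1 against 19.1 CPM in the OVCAR3-labelled pair (-0.08, -0.32 to 0.16). In the SKOV3-labelled pair it had 16.2 against 17.9 CPM (-0.14, -0.38 to 0.09), and both intervals include 0. Among the SKOV3-labelled ratios ASNS, asparagine synthetase, was the lowest at -0.44 (-0.53 to -0.34) and CHAC1, a glutathione-degrading enzyme gene, the highest at 0.56 (0.11 to 1.03), at 5.39 against 3.63 CPM. With the trend on GC content and length removed, all 11 lay below 0 in the OVCAR3-labelled pair and their median was -1.53. Of 12731 protein-coding genes 6525 lay below 0 in that setting.

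The remaining lists were mixed in the OVCAR3-labelled pair. Beside their counts, the size rule took 15.4% of all measured genes downward and 22.5% upward there. Of protein-coding genes it took 18.2% downward and 12.9% upward. Of 6 measured genes of the ATF6 family and its proteases 2 were lower and 1 higher by the size rule, from CREB3L2 at -1.98 (-2.14 to -1.83) to CREBZF at 1.68 (1.53 to 1.84). Of 17 genes of oxidative folding and glycan control 3 were lower and 1 higher. GANAB, the catalytic subunit of glucosidase II, had 129 against 604 CPM (-2.23, -2.30 to -2.16), and UGGT2, of the glucosyltransferases that sense misfolding, had 1.09 (0.94 to 1.24). Of 20 further degradation genes 5 were lower and 1 higher, with VCP, the ATPase that extracts proteins from the membrane, at 65.2 against 230 CPM (-1.82, -1.92 to -1.71) and DNAJB14 at 1.11 (0.99 to 1.24). Of 21 further genes of translocation and glycosylation 15 lay above 0 with a median of 0.26. The lowest of them all was SRPRA, a subunit of the receptor for the signal recognition particle, at -1.40 (-1.53 to -1.27). The highest was OST4, a small oligosaccharyltransferase subunit, at 1.19 (1.08 to 1.30). With the trend removed 12 of these 21 lay above 0 with a median of 0.07, and UGGT2 and OST4 had 0.64 and 0.84. The size rule in that setting took 1385 of 12731 protein-coding genes downward and 1648 upward. The size rule then took 1 of the ATF6 family downward and 1 upward, 3 of the oxidative folding genes downward, 1 of the further degradation genes downward and 1 of the translocation genes downward, and none of the last 3 lists upward.

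In the SKOV3-labelled pair no gene of these 5 lists passed the size rule. The medians lay between -0.08 and 0.09, against -0.16 for the members. The extremes of the lists were CREB3L2 at -0.32 and CREB3 at 0.26, FKBP2 at -0.32 and UGGT2 at 0.21, MARCH6 at -0.27 and UBE2J2 at 0.26, and SSR3 at -0.23 and SEC61A2 at 0.33. Of 75 measured genes 37 lay below 0, which is close to the 48.9% of all measured genes.

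**Figure D4:**
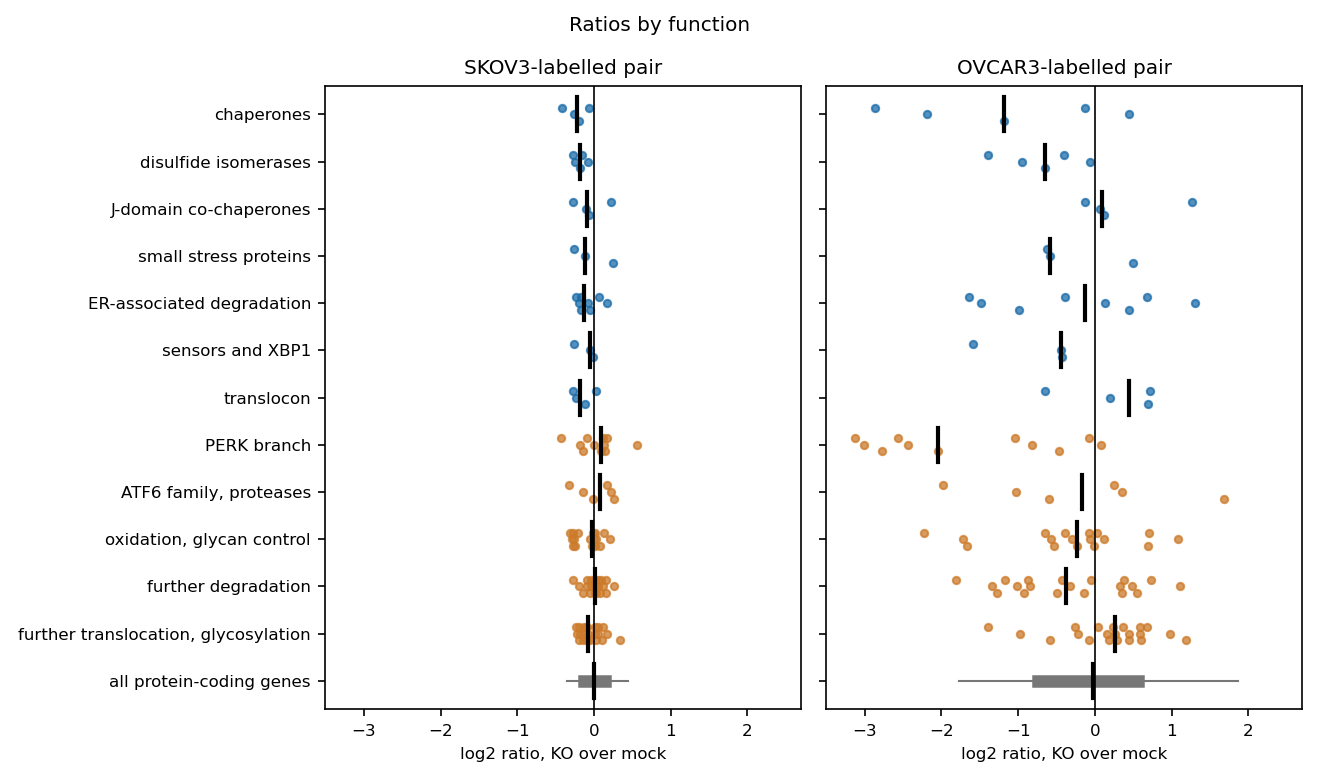
Log2 ratio of knockout over mock by function in the SKOV3-labelled pair (left) and the OVCAR3-labelled pair (right), with blue points for members, orange points for other genes of the pathway and black bars for medians; the bottom row gives the median, quartiles and 5th to 95th percentiles of all protein-coding genes. The list of PERK branch genes has a median of -2.04 on the right and 0.09 on the left.

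Over both lines together, with the line label as a block, edgeR's quasi-likelihood test called 0 of 13670 genes after Benjamini-Hochberg adjustment, 0% in each direction, and so 0 of the 31 members fitted. At an unadjusted p under 0.05 it had 140 genes, 71 lower (0.519%) and 69 higher (0.505%), and HSPA5 alone among the members. HSPA5 had a log2 change of -1.30 ± 0.58 (SE, 2 libraries per group, lower in both lines), an unadjusted p of 0.0483 and an adjusted p of 0.956 in edgeR's test. Its unadjusted p in edgeR was 0.0531 with DESeq2 size factors and 0.0627 with TMM over all symbols. DESeq2 and limma-voom called 0 genes as well, with 412 and 306 at an unadjusted p under 0.05. The lowest adjusted p of any member over the 9 settings of this test lay between 0.921 and 1.00. The fit leaves 1 residual degree of freedom per gene.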

How the data were processed

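The authors deposited 1 raw count per gene symbol and library, per the file headers. The submitters' processing notes name TopHat and GRCh38. Counting tool, annotation and use of strand: not given in the sources used here. A directional NEBNext Ultra II kit was used, per the labels' protocols. The 58173 rows were summed to 52402 symbols. Rows of 2687 symbols were summed in this way, with between 0.351% and 0.465% of a library's counts. UFD1 and MARCHF6 were found under the older symbols UFD1L and MARCH6.

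Counts were scaled with TMM (edgeR 4.0.16, R 4.3.3) over genes with at least 1 CPM in at least 2 libraries, with factors of 1.04, 1.02, 0.931 and 1.01 for SKOV3 knockout and mock and OVCAR3 knockout and mock. A count of 0 allows up to 3 counts, between 0.133 and 0.204 CPM. Reads carry no molecular identifiers, so intervals (Clopper-Pearson) and floors cover counting error alone. The test over both lines used edgeR with 1 residual degree of freedom and a threshold of 0.05. No label tells of replicate cultures within a line. With the line as a block, the residual spread of a gene is the difference of its knockout ratio between the lines. A p-value reflects that difference, pooled in part over genes, and a technical part of it cannot be told apart. GC content and length are those of the longest GENCODE transcript, and gene coordinates are those of RefSeq GRCh38.p14. The trend removed is a spline with 5 degrees of freedom for each, centred on the median of protein-coding genes. Methods were also run on simulated counts with the same fold changes in both lines. That run does not show how the test over both lines behaves where knockout ratios differ between the lines, as here. A planned look at the protein ends was not made.

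The 33 members and all lists were chosen with earlier results of these data known. Named genes are all members and, of each other list, the highest and lowest ratio per line. ATF6B, EIF2AK3 and the marker genes were named in addition after their values were seen. Alternatives were DESeq2 1.42.0 size factors and test, no scaling factor, other filters, prior counts and folds, the mitochondrial rows left out, limma 3.58.1 voom, robust edgeR and no block; TMM over all symbols and the promoter search over every listed start were added after seeing the data.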

Additional observations from a re-analysis of the deposited data

Results flagged for a closer look

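For 7 members the 95% counting intervals lay on opposite sides of 0 in the 2 line labels, 7 of 31 measured in both beside 13.4% of all 13294 genes measured in both. The difference between the lines was not tested, since each ratio rests on 1 library per group. The value for each is the OVCAR3-labelled minus the SKOV3-labelled log2 ratio. It was 1.54 for EDEM1 (1.31 and -0.23), 0.96 for SEC61G (0.69 and -0.28), 0.71 for HSP90B1 (0.45 and -0.26), 0.61 for MANF (0.49 and -0.12), 0.44 for SEC63 (0.20 and -0.24), 0.30 for SEL1L (0.13 and -0.17) and -0.84 for CRELD2 (-0.59 and 0.25). SEC61G, SEC63 and SEL1L fall below 0 in the OVCAR3-labelled pair with the trend on GC content and length removed, at -0.23, -0.13 and -0.21. EDEM1, MANF, HSP90B1 and CRELD2 are then at 1.41, 0.57, 0.12 and -0.20 in that pair.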

How the results depend on the processing

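No paired analysis was possible because the groups share a single replicate number, so that replicate numbers could not pair samples; knockout and mock were paired by line label in the test over both lines, which called 0 genes also without that block. With 1 library per group none could be left out. The members' median in the SKOV3-labelled pair stayed between -0.18 and -0.12 under every alternative run. In the OVCAR3-labelled pair it moved to -0.69 with TMM over all symbols, where all genes moved too (median -0.17), and 9 members were then lower and 1 higher by the size rule. At 1.5-fold 13 members were lower and 5 higher, beside 3928 and 5215 of 15560 genes, and at 3-fold 4 and 0, beside 939 and 2360. With the GC and length trend removed 4 were lower and 1 higher, with 1385 lower and 1648 higher among protein-coding genes, a smaller set. Over all genes the OVCAR3-labelled pair had 8078 higher genes without a filter, and 1412 when 5 CPM was required. SKOV3-labelled counts were 1173 lower and 1097 higher without a filter, 8 and 6 when 5 CPM was required, 379 and 505 at 1.5-fold, 36 and 13 at 3-fold, 71 higher with a prior count of 5 and 43 lower with the trend removed. The cause was not tested beyond what each setting changes by its construction. Over both lines the test without a filter called 1 gene, P2RY11, which is no member. Of the members' single ratios under an alternative, 68 of the OVCAR3-labelled and 1 of the SKOV3-labelled moved by more than their counting error, and 283 and 340 by less. HYOU1 and DERL3 had 20 counts or fewer in every library; whether depth or their repeated rows set this was not tested.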
